A study of Mus musculus with 15 samples.

Results

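The enzymes that oxidise fatty acids, together with fatty acid handling genes known as targets of the peroxisome proliferator-activated receptors (PPARs), were followed in a mouse pancreatic acinar line treated with retinoid receptor ligands. The list held 36 genes, out of 43432 gene identifiers in the count table, and all 36 were found. They were given by name for their function, but were chosen with earlier results of these data known. A total of 34 had enough reads to be tested, among 16736 genes tested. Fabp4 and Ucp3 did not pass the filter on low counts. The line, 266-6, was derived from an acinar tumour of a mouse carrying a viral T antigen transgene under an elastase promoter, and it is 1 established line. Cells of every group spent 24 h in stripped medium and then 24 h with a ligand, and each of 5 groups had 3 libraries. The groups received the vehicle DMSO, AM580 (an agonist of the retinoic acid receptor RARα), CD3254 (an agonist of the retinoid X receptors, RXRs), AM580 with CD3254 (the joint treatment), or 9-cis retinoic acid, a natural ligand of RARs as well as RXRs. The labels give no ligand concentration.

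Fatty acids are burned in mitochondria by β-oxidation, a cycle in which an acyl-CoA is dehydrogenated, hydrated, dehydrogenated again and cleaved by a thiolase, while very long and branched chains are first shortened in peroxisomes. PPARs sense fatty acids and switch on many of these enzymes. They bind DNA as heterodimers with an RXR, and an RXR ligand alone can activate such a pair.

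Library depth ran from 28501170 to 46801058 gene reads, except for replicate 3 of 9-cis retinoic acid with 14600962. On the second principal component (15.3% of the variance) that shallow library also stood apart, at 97.1 against -22.3 to 20.6 in the others. The first principal component (48.3% of the variance) parted 5 libraries, 1 of each group (replicate 1 of DMSO, AM580, CD3254 and 9-cis retinoic acid, and replicate 2 of the joint treatment), from the other 10. The summed level of 11 hypoxia-responsive genes, led by Ndrg1, was between 3871 and 4583 CPM (a gene's reads scaled to a common library total and divided by the library's TMM factor, 0.801 to 1.06, which corrects for composition) in the 5 and between 405 and 614 CPM in the 10. Each comparison was therefore fitted without and with this library set as a term. The set was defined from these very counts, so p-values with the term rest on the data they test. The acinar markers Ctrb1 and Cela1 were abundant, with means of 5212 and 1997 CPM, but the amylase gene Amy2a5 was at 0.0786 CPM and the lipase gene Pnlip at 0.339 CPM, so these acinar markers were near 0. The adipocyte markers Adipoq, Cidec, Lep and Plin1 and the macrophage markers Ptprc, Adgre1 and Csf1r were each at or under 0.232 CPM in every library, although Cd68 lay between 4.26 and 23.9 CPM. In bulk samples fewer cells of a type and less RNA per cell cannot be told apart.

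Transcripts for each step of mitochondrial β-oxidation were detected in the acinar line. Per kilobase of annotated exon, the most abundant transcripts were Acaa2, the mitochondrial thiolase, at a mean level of 98.1 CPM per kb, Etfa at 73.8 and Etfb at 64.4 CPM per kb, the 2 subunits of the electron transfer flavoprotein that carries electrons from the dehydrogenases, and the long-chain dehydrogenase Acadl at 60.2 CPM per kb. Hadha, the α subunit of the mitochondrial trifunctional protein, followed at 48.1 CPM per kb, and Fabp5, a cytosolic fatty acid binding protein, at 43.3 CPM per kb. This order depends on the length used, the union of all annotated exons, which was 8730 bases for Hadha and 1516 for Acaa2. Before division by length Hadha had the highest mean, at 420 CPM, against 149 CPM for Acaa2. Per kilobase the peroxisomal enzymes were lower than these genes, with 25.4 CPM per kb for catalase (Cat) and 21.0 for the bifunctional enzyme Hsd17b4. The thiolase Acaa1a was at 9.11, the bifunctional enzyme Ehhadh at 2.70 and the oxidase Acox3 at 2.19 CPM per kb. Mitochondrial genes lay on both sides of Cat and Hsd17b4, with Acadvl at 29.3, Hadhb at 20.0 and Acadm at 13.9 CPM per kb. Acaa1b, the second peroxisomal thiolase, had the lowest tested level, at 0.616 CPM per kb.

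Listed genes differed in how far their levels varied. For 18 of the 34 tested genes the highest of the 15 libraries was less than 2 times the lowest, and the median ratio was 1.97. The ratio was not computed over all genes tested, so these values have no reference. The ratio ran from 1.44 for Decr2, a peroxisomal dienoyl-CoA reductase, to 9.34 for Fabp5. Fabp4, the adipocyte fatty acid binding protein, had a mean of 0.115 CPM with at most 19 reads in a library. Ucp3, the muscle uncoupling protein, had a mean of 0.0268 CPM with at most 3 reads, while its neighbour Ucp2 on chromosome 7 had a mean of 144 CPM.

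**Figure D1:**
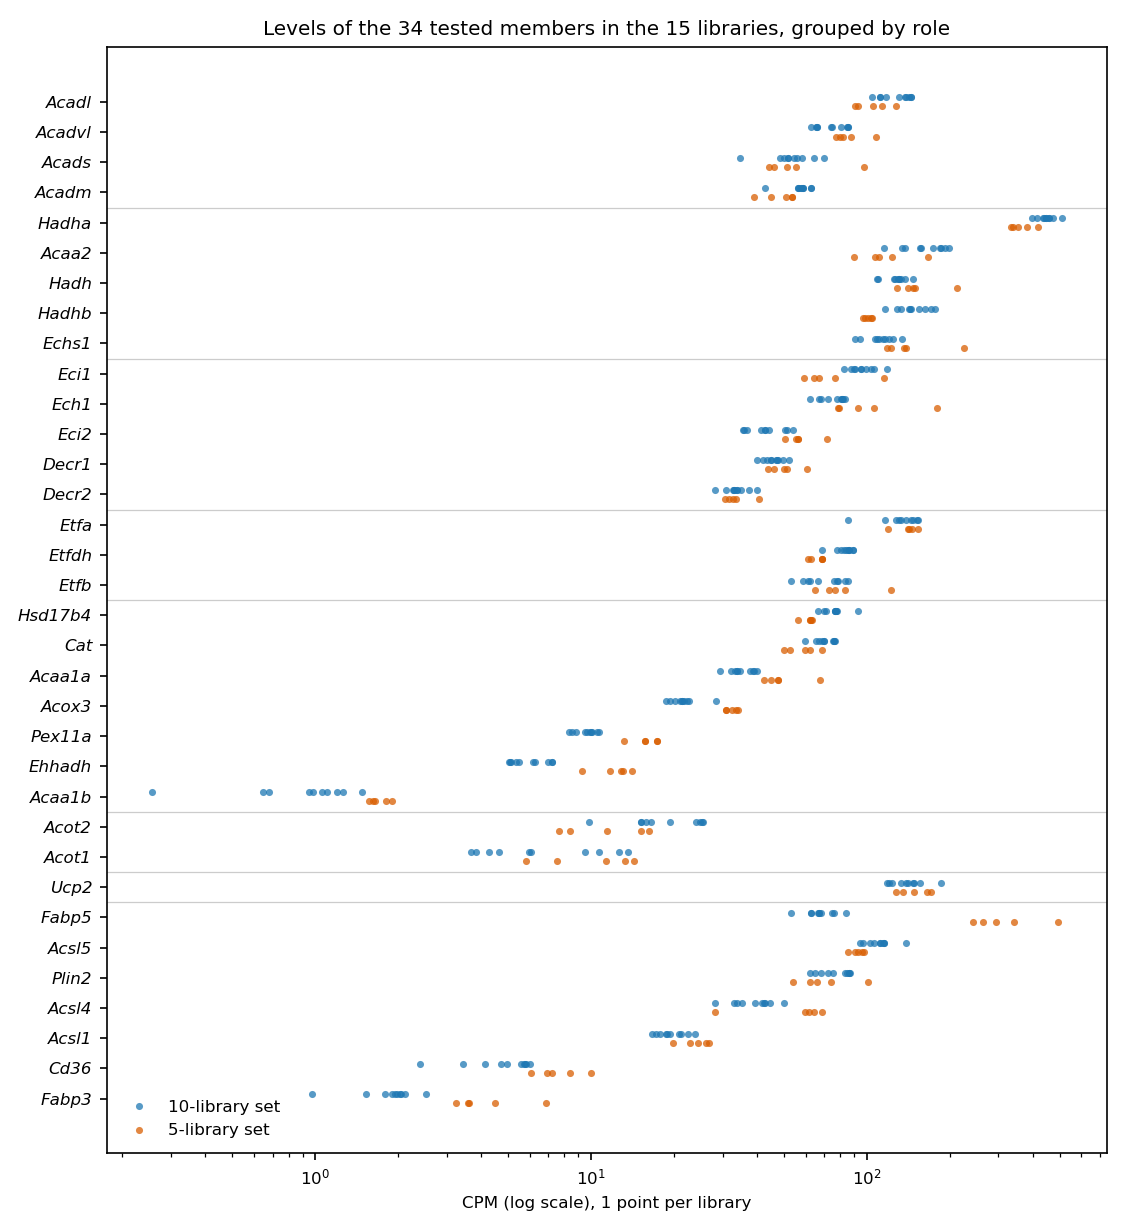
Level in CPM (log axis) of the 34 tested genes in each of 15 libraries, ordered by role with grey lines between roles; orange points are the 5-library set and blue points the 10-library set. Hadha has the highest mean (419.9 CPM) and Acaa1b the lowest (1.21 CPM), and the orange Fabp5 points (242 to 495 CPM) lie apart from the blue ones (53.0 to 84.0 CPM).

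The genes with the largest differences under CD3254 were Acot1 and Acot2, which encode acyl-CoA thioesterases, the first cytosolic and the second mitochondrial. These enzymes cleave acyl-CoA into a free fatty acid and coenzyme A, and both genes are known PPARα targets. They lie next to each other on chromosome 12 (GRCm38), Acot2 at 83987861 to 83993873 and Acot1 at 84009490 to 84018371, both on the forward strand and both protein-coding. Their coding sequences were identical at 95.3% of 1236 aligned bases in GENCODE M21, with a longest identical run of 273 bases. Of the distinct 50-base words in their transcripts, 13.6% of those of Acot1 also occurred in Acot2 and 24.5% of those of Acot2 in Acot1, so reads can be shared and the split between the genes is uncertain. The ungapped stretch of 80 coding bases with the most differences, 14, is shown because the aligned coding sequences differ most there. Sequence outside the alignment was not searched for this. Capitals mark the bases that differ.
Acot1, coding bases 807 to 886: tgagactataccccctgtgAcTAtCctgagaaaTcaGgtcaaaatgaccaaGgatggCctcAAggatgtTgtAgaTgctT
Acot2, coding bases 930 to 1009: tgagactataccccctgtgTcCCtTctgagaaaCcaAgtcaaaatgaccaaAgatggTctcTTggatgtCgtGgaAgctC

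In replicates 1, 2 and 3, Acot1 measured 5.80, 5.98 and 4.62 CPM with DMSO and 13.2, 12.6 and 13.6 CPM with CD3254. With AM580 it measured 11.4, 4.28 and 3.83 CPM, with the joint treatment 10.7, 14.3 and 9.49 CPM, and with 9-cis retinoic acid 7.51, 6.05 and 3.68 CPM. All 3 CD3254 libraries lay above all DMSO, AM580 and 9-cis retinoic acid libraries, and all 3 joint libraries lay above all DMSO libraries, but replicate 1 of AM580 exceeded replicates 1 and 3 of the joint treatment. Means were 5.47 ± 0.736 CPM with DMSO and 13.2 ± 0.495 CPM with CD3254 (SD, n = 3).

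Acot2 measured 8.36, 15.2 and 15.2 CPM with DMSO and 16.2, 25.5 and 24.9 CPM with CD3254. With AM580 it measured 7.63, 16.5 and 15.8 CPM, with the joint treatment 24.1, 15.2 and 25.3 CPM, and with 9-cis retinoic acid 11.5, 19.3 and 9.83 CPM. The CD3254 and DMSO libraries did not overlap, and the member of the 5-library set was the lowest of its group with DMSO, AM580, CD3254 and the joint treatment. In 9-cis retinoic acid replicate 3 was lower still. Within the 10-library set the 4 libraries that received CD3254 lay between 24.1 and 25.5 CPM and the 4 with DMSO or AM580 between 15.2 and 16.5 CPM.

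**Figure D2:**
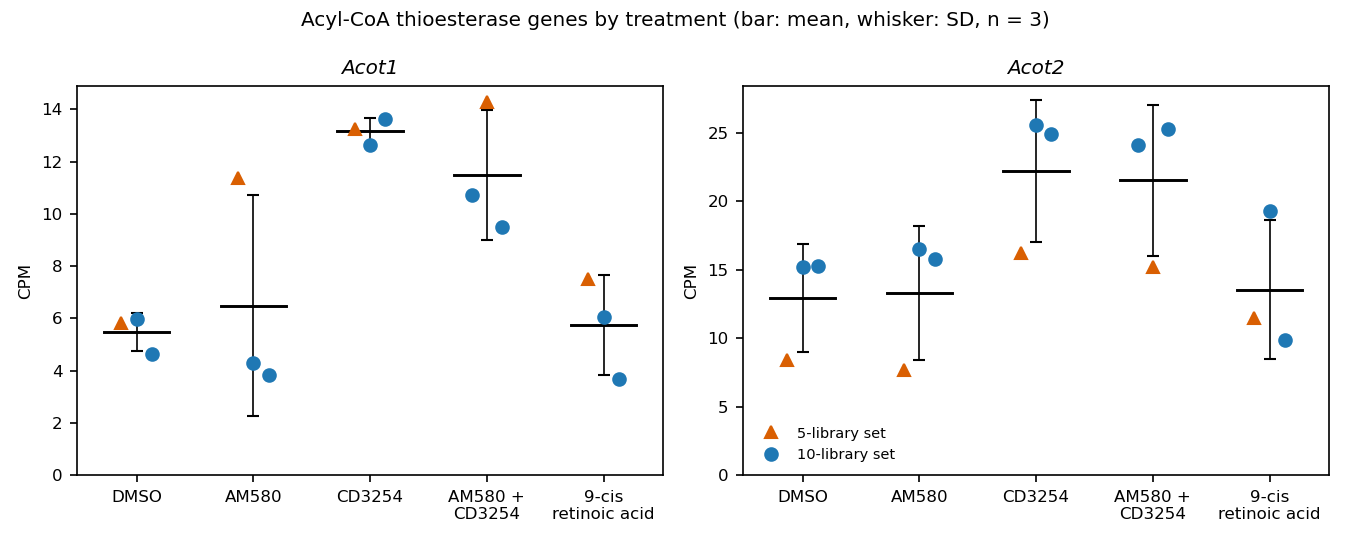
CPM of Acot1 (left) and Acot2 (right) in each library by treatment; triangles are the 5-library set, circles the 10-library set, bars the mean and whiskers the SD of 3 libraries. Acot1 lies between 12.6 and 13.6 CPM with CD3254 against 4.62 to 5.98 CPM with DMSO, and the triangles are low for Acot2 in every group but 9-cis retinoic acid.

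No listed gene passed the threshold, an edgeR FDR of 0.05 over all genes tested, in any of 9 comparisons in either fit. For CD3254 against DMSO the count was 0 of 34, beside 0% of all genes without the term and 0.0239% with it. At an unadjusted p under 0.05, 1 gene (0.454% of all genes) without the term and 2 genes (1.98% of all genes) with it were counted, and DESeq2 called 0 without the term (0% of all genes) and 1, Acot1, with it (0.0717%). The fitted log2 change of Acot1 was 1.27 ± 0.38 (SE; edgeR FDR = 0.999978) when the term was left out and 1.28 ± 0.27 when it was included (edgeR FDR = 0.895). That of Acot2 was 0.78 ± 0.36 without the term and 0.80 ± 0.20 with it (edgeR FDR = 0.99987). Leaving out replicate 1 of AM580 brought Acot1 to an edgeR FDR of 0.0365 with the term, where 0.0467% of all genes passed. That library is not part of this comparison, but all groups share 1 estimate of the spread. The change of Acot1 hardly moved, at 1.27, while its SE was 0.19.

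The 6 libraries with CD3254 were also set against the 6 with DMSO or AM580, as the mean of CD3254 and the joint treatment minus the mean of DMSO and AM580. The count was again 0 of 34, against 0% of all genes without the term and 0.0598% with it, and at an unadjusted p under 0.05 it was 2 (1.2% of all genes) and 4 (4.87% of all genes). The averaged change of Acot1 was 1.10 ± 0.19 on the log2 scale, or 2.14-fold, with a 95% interval from 0.66 to 1.54 (with the term, edgeR FDR = 0.0748). For Acot2 it was 0.76 ± 0.14, or 1.70-fold, with an interval from 0.44 to 1.09 (edgeR FDR = 0.120). Both intervals lay above 0 in this fit, yet neither gene passed after adjustment over all genes. Without the term the values were 1.05 ± 0.27 and 0.74 ± 0.26 (edgeR FDR = 0.999649 for both).

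Whether the pair passed depended on single libraries. Without replicate 1 of AM580 the averaged change of Acot1 was 1.33 (with the term, edgeR FDR = 0.00219), where 0.07% of all genes passed. In the 10-library set alone it was 1.31 ± 0.17 (edgeR FDR = 0.0420), where 0.0538% passed. Without replicate 3 of 9-cis retinoic acid, the shallowest library, that of Acot2 was 0.76 with the term (edgeR FDR = 0.00338), where 0.111% passed. DESeq2 with the term called both genes, with adjusted p = 4.82e-05 for Acot1 and 0.000219 for Acot2, beside 0.293% of all genes, and without the term it called neither (0.0418% of all genes).

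Summing the reads of the 2 genes removes the uncertain split of counted reads between them, but does not restore reads dropped in counting. It also leaves sharing with further loci, since 19.2% of the words of Acot1 and 27.7% of those of Acot2 occurred in any other gene. The sum measured 14.2, 21.2 and 19.9 CPM with DMSO, 19.0, 20.8 and 19.6 CPM with AM580, 29.5, 38.2 and 38.5 CPM with CD3254, 34.8, 29.4 and 34.8 CPM with the joint treatment and 19.0, 25.3 and 13.5 CPM with 9-cis retinoic acid. All 6 libraries with CD3254 thus lay above all 9 without it. Among single genes, 0.0956% had all 6 CD3254 libraries above the 6 with DMSO or AM580, and 0 of the 34 listed genes did. Refitted as 1 gene, a choice made after the values were seen, the sum rose 1.79-fold with CD3254 averaged over AM580, a log2 change of 0.84 ± 0.13 with the term (edgeR FDR = 0.0402, where 0.0657% of all genes passed), and gave 0.84 ± 0.16 without it (edgeR FDR = 0.500).

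Acot1 made up between 39.6% and 59.8% of that sum in the 5-library set and between 19.5% and 35.4% in the other 10 libraries. Within the 10-library set the share was 28.2% and 23.3% with DMSO, 20.6% and 19.5% with AM580, 33.1% and 35.4% with CD3254, and 30.8% and 27.3% with the joint treatment. The balance of the pair thus moved with the library set and, within the larger set, lay higher in CD3254 than in AM580 libraries.

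For most genes outside the thioesterases the difference with CD3254 could be bounded. In the averaged comparison with the term, the 95% interval of 32 of the 34 genes lay within a 2-fold change in either direction, all but those of Acot1 and Acot2, and that of 27 lay within 1.5-fold. Without the term 30 lay within 2-fold, and Fabp3 and Fabp5 were also outside. For CD3254 against DMSO 31 lay within 2-fold with the term, where Acaa1b was outside beside the thioesterases. Without it 27 did, and Acaa1b, Ehhadh, Cd36, Fabp3 and Fabp5 were outside beside them. In the averaged comparison with the term the median log2 change was 0.05 over the 34 genes and -0.0061 over all genes tested. There 21 of 34 were above 0, against 48.7% of all genes. Acadl measured 113, 139 and 144 CPM with CD3254 and 142, 128 and 144 CPM with the joint treatment, against 92.7, 137 and 131 CPM with DMSO and 105, 112 and 111 CPM with AM580. The groups overlapped through replicates 2 and 3 of DMSO, and the averaged log2 change was 0.24 ± 0.08 (edgeR FDR = 0.793).

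Acsl1, a long-chain acyl-CoA synthetase, measured 26.9, 22.5 and 21.2 CPM with CD3254 and 20.8, 24.4 and 23.7 CPM with the joint treatment, against 26.2, 17.7 and 17.3 CPM with DMSO and 19.8, 19.4 and 18.7 CPM with AM580. The averaged log2 change was 0.23 ± 0.09 (edgeR FDR = 0.793), and 1 DMSO library, in the 5-library set, lay above most CD3254 libraries. Within the 10-library set the 4 CD3254 libraries exceeded the other 4 for 8 listed genes, Acadl, Hadhb, Decr1, Etfdh, Acot1, Acot2, Cat and Acsl1, where 1.54% of all genes did so. No listed gene was lower in all 4, against 2.01% of all genes. In both library sets at once, 4 listed genes (Acadl, Etfdh, Acot1 and Acot2) were higher in every CD3254 library, beside 0.359% of all genes. The 5-library set has only 1 library per group. There Etfdh measured 68.8 CPM with CD3254 and 68.9 CPM with the joint treatment, against 68.6 CPM with DMSO and 61.2 CPM with AM580.

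The remaining enzymes are given by role, from the same averaged comparison with the term. Among the acyl-CoA dehydrogenases, the medium-chain enzyme Acadm lay between 38.9 and 62.9 CPM over all 15 libraries and had a log2 value of 0.09 ± 0.11, with a 95% interval from -0.15 to 0.33. The very-long-chain enzyme Acadvl lay between 62.9 and 108 CPM, with an interval from -0.25 to 0.28, while Acads had an interval from -0.68 to 0.077. All 3 intervals include 0. For the trifunctional subunit Hadha the interval ran from -0.16 to 0.25, and for the hydroxyacyl-CoA dehydrogenase Hadh, at 109 to 212 CPM, from -0.42 to 0.088. Ech1, which shifts double bonds in unsaturated chains, lay between 62.1 and 179 CPM, with an interval from -0.48 to 0.31. The electron transfer genes Etfb and Etfdh had intervals from -0.41 to 0.34 and from -0.084 to 0.26. Outside the mitochondrial cycle, Ucp2 had an interval from -0.21 to 0.34, Plin2 from -0.26 to 0.38 and Acsl4, at 28.1 to 68.6 CPM, from -0.13 to 0.65. None of these genes passed the threshold.

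**Figure D3:**
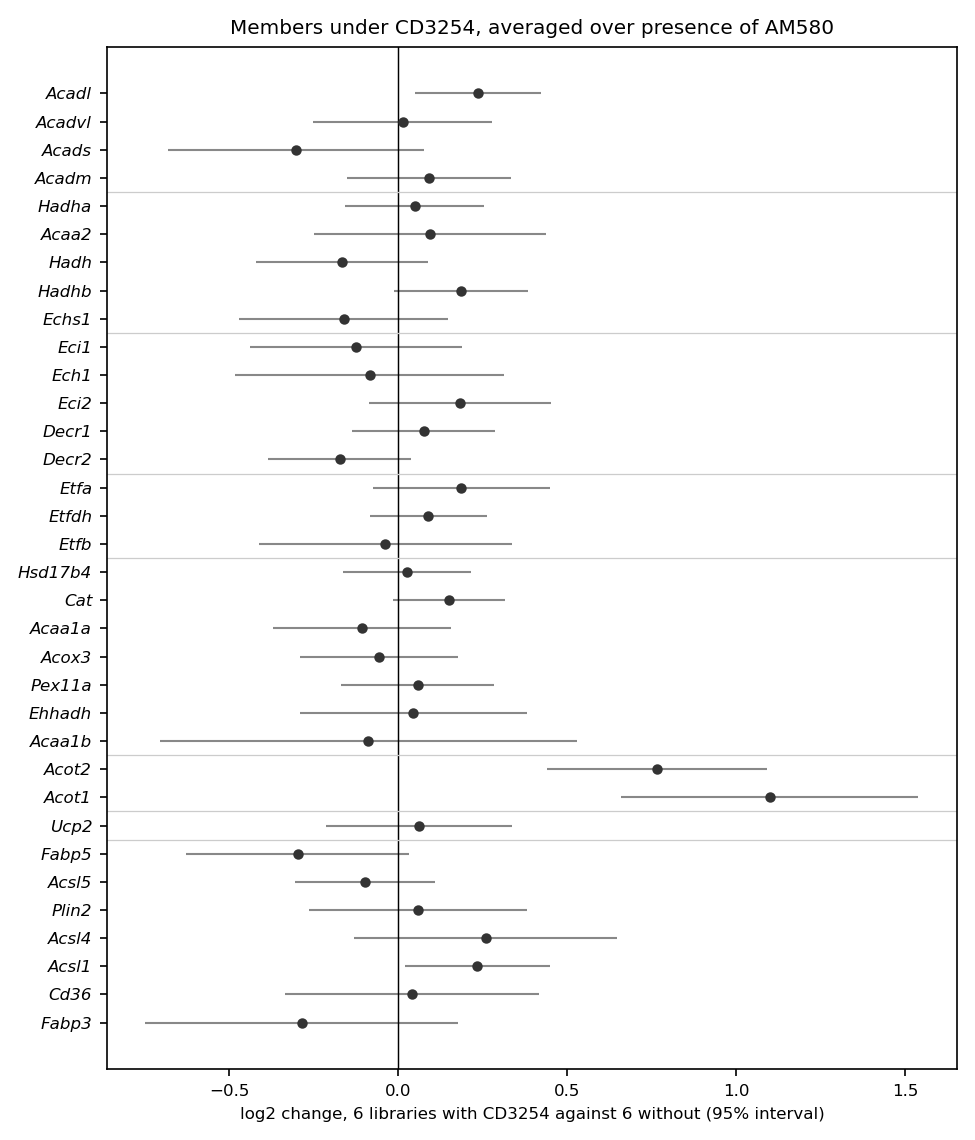
Fitted log2 change of the 34 tested genes for the 6 libraries with CD3254 against the 6 with DMSO or AM580, with the library set term; bars are 95% intervals and grey lines part the roles. Acot1 (1.10) and Acot2 (0.76) stand to the right and the other 32 intervals stay between a 2-fold fall and a 2-fold rise.

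In the direct comparison of CD3254 with DMSO, 26 of 34 fitted values were above 0 with the term, against 48.7% of all genes, with a median of 0.08 against -0.0047. The thioesterases differed most, with a median of 1.04, and the other role groups had medians between 0.01 and 0.11. All 3 CD3254 libraries lay above all 3 DMSO libraries for 5 listed genes, Eci2, Decr1, Etfa, Acot1 and Acot2, where 2.36% of all genes did so, and below them for none, against 2.31%. Hadhb, the β subunit of the trifunctional protein, measured 101, 177 and 171 CPM with CD3254 and 98.4, 144 and 129 CPM with DMSO. In each group the library of the smaller set was the lowest, the groups overlapped, and the log2 change was 0.25 ± 0.12 (edgeR FDR = 0.99987). For Acsl1 in this comparison it was 0.22 ± 0.13 (edgeR FDR = 0.99987).

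No listed gene passed the threshold with AM580 alone. The count was 0 of 34 in both fits, beside 0% of all genes without the term and 0.0299% with it, and 0 were under an unadjusted p of 0.05 (1.22% and 4.21% of all genes). DESeq2 also called 0 in both fits (0.0598% and 0.102% of all genes). The median change was 0.07, against 0.0047 over all genes, and 22 of 34 values were above 0, against 50.7% of all genes. The 4 genes with the smallest p were Acaa2 (0.40 ± 0.21), the short-chain enoyl-CoA hydratase Echs1 (0.35 ± 0.19), the enoyl-CoA isomerase Eci1 (0.30 ± 0.20) and the short-chain dehydrogenase Acads (0.36 ± 0.24), each with an edgeR FDR of 0.808.

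For Echs1, Acads and Eci1 the highest AM580 value came from the same library. Echs1 measured 225, 114 and 111 CPM with AM580 and 123, 124 and 94.3 CPM with DMSO. Acads measured 97.6, 54.4 and 51.9 CPM with AM580 and 44.2, 64.6 and 48.4 CPM with DMSO, and Eci1 measured 116, 95.1 and 89.8 CPM with AM580 and 59.3, 103 and 90.5 CPM with DMSO. Replicate 1 of AM580 was the highest of its group for these 3 genes, while its counterpart in the smaller set, replicate 1 of DMSO, was the lowest DMSO library for Acads and Eci1. Acaa2 measured 167, 158 and 156 CPM with AM580 and 90.1, 173 and 115 CPM with DMSO, where the spread lay in the DMSO group. Replicate 1 was its highest AM580 library and its lowest DMSO library too. Its AM580 minus DMSO difference on the log2 scale was 0.89 in the 5-library set and 0.15 in the 10-library set. No listed gene was higher in all 3 AM580 libraries than in all DMSO libraries (2.19% of all genes), and 1, Etfa, was lower (2.22%). Without replicate 1 of AM580 the change of Acads was -0.015 and that of Eci1 -0.018 with the term, so their direction turned.

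The same library was the highest of all 15 for 14 of the 34 listed genes (41.2%), against 25.5% of all genes tested. The summed level of the list was 3436 CPM there and between 2387 and 2813 CPM in the other 14 libraries. Within the 5-library set, where each group has 1 library and no test is possible, AM580 minus DMSO on the log2 scale was 1.181 for Ech1, 1.14 for Acads, 0.97 for Acot1, 0.96 for Eci1, 0.92 for Etfb and 0.91 for the lipid droplet coat gene Plin2. In the 10-library set the same differences were -0.25, -0.07, -0.38, -0.07, -0.20 and -0.06, so the small fitted change of Acot1 with AM580 averages opposite differences in the 2 sets. Not every large difference turned. Fabp3, Acaa2 and Echs1 gave 0.93, 0.89 and 0.88 in the 5-library set and 0.06, 0.15 and 0.06 in the 10-library set. Fabp5 gave 0.91 and -0.30. Acsl4, an acyl-CoA synthetase that prefers arachidonic acid, went the other way, at -1.28 in the 5-library set and 0.06 in the 10-library set. The macrophage marker sum, nearly all of it Cd68, was also highest there, at 24.7 CPM against 4.62 to 15.2 CPM in the other libraries. The acinar marker sum was highest there as well, at 12006 CPM, against 6778 to 7489 CPM in the other 4 libraries of its set and 7905.5 to 11845 CPM in the 10-library set. The part of either marker sum in these differences was not tested.

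With the joint treatment against DMSO the count was 0 of 34, beside 0.0179% of all genes without the term and 0.125% with it. At an unadjusted p under 0.05 it was 1 (1.5% of all genes) and 3 (4.79% of all genes), and DESeq2 called 0 without the term (0.108% of all genes) and 1, Acot1, with it (0.544%). The log2 change of Acot1 was 1.04 ± 0.27 (edgeR FDR = 0.363) and that of Acot2 0.75 ± 0.20 (edgeR FDR = 0.397) with the term. Without replicate 1 of AM580 Acot1 passed (edgeR FDR = 0.0444, 0.222% of all genes), and without replicate 3 of 9-cis retinoic acid Acot2 passed (edgeR FDR = 0.0334, 0.141% of all genes), both with the term. Neither library is part of this comparison, and the changes in those fits were 1.05 for Acot1 and 0.74 for Acot2. Decr1, the mitochondrial dienoyl-CoA reductase, and Acot1 were higher in all 3 joint libraries than in all DMSO libraries, where 2.39% of all genes were, and 0 listed genes were lower in all 3 (2.28%).

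Cat, which removes the hydrogen peroxide made by peroxisomal oxidation, measured 76.9, 68.9 and 76.1 CPM with the joint treatment and 52.7, 66.9 and 69.6 CPM with DMSO. Replicate 2 of the joint treatment fell inside the DMSO range, and the log2 change was 0.24 ± 0.10 with the term (edgeR FDR = 0.978). Acadl gave 0.21 ± 0.12 (edgeR FDR = 0.99994). Over the list the median was 0.05 with 21 of 34 above 0, against -0.0064 and 48.7% for all genes. The comparisons of CD3254, AM580 and the joint treatment with DMSO share the 3 DMSO libraries, so their values stand side by side and are not independent.

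No listed gene passed the threshold with 9-cis retinoic acid. With the term 32 of 34 intervals lay within a 2-fold change, all but those of Acaa1b and Cd36, and 21 within 1.5-fold. This group holds replicate 3, the shallowest library, which stood apart on the second principal component. The count was 0 of 34, beside 0% of all genes without the term and 0.0299% with it, and 0 genes were under an unadjusted p of 0.05 in either fit (1.45% and 3.97% of all genes). DESeq2 called 0 in both fits (0.0598% and 0.131% of all genes). The median change was -0.02, against 0.01 for all genes, and 17 of 34 values were above 0, against 52% of all genes. Acot1 gave 0.06 ± 0.28 and Acot2 0.13 ± 0.20, with 95% intervals from -0.57 to 0.69 and from -0.33 to 0.60.

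The smallest p was that of Cd36, a transporter of fatty acids at the cell surface. It measured 6.91, 4.13 and 2.39 CPM with 9-cis retinoic acid and 7.20, 5.71 and 5.58 CPM with DMSO. The groups overlapped through replicate 1 of 9-cis retinoic acid, the lowest value came from the shallowest library, and the log2 change was -0.50 ± 0.24 (edgeR FDR = 0.980). Decr1 measured 46.2, 49.6 and 52.2 CPM against 43.8, 43.3 and 41.8 CPM with DMSO, and it was the 1 listed gene with all 3 libraries higher (2.15% of all genes; 0 were lower, against 2.03%), with a change of 0.20 ± 0.13 (edgeR FDR = 0.980).

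Acadl measured 90.4, 118 and 105 CPM with 9-cis retinoic acid, a change of -0.20 ± 0.12 from DMSO. Acsl5, an acyl-CoA synthetase, measured 85.2, 115 and 97.2 CPM against 95.8, 138 and 102 CPM with DMSO, a change of -0.18 ± 0.13 (edgeR FDR = 0.980 for both genes). Both overlapped with DMSO.

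**Figure D4:**
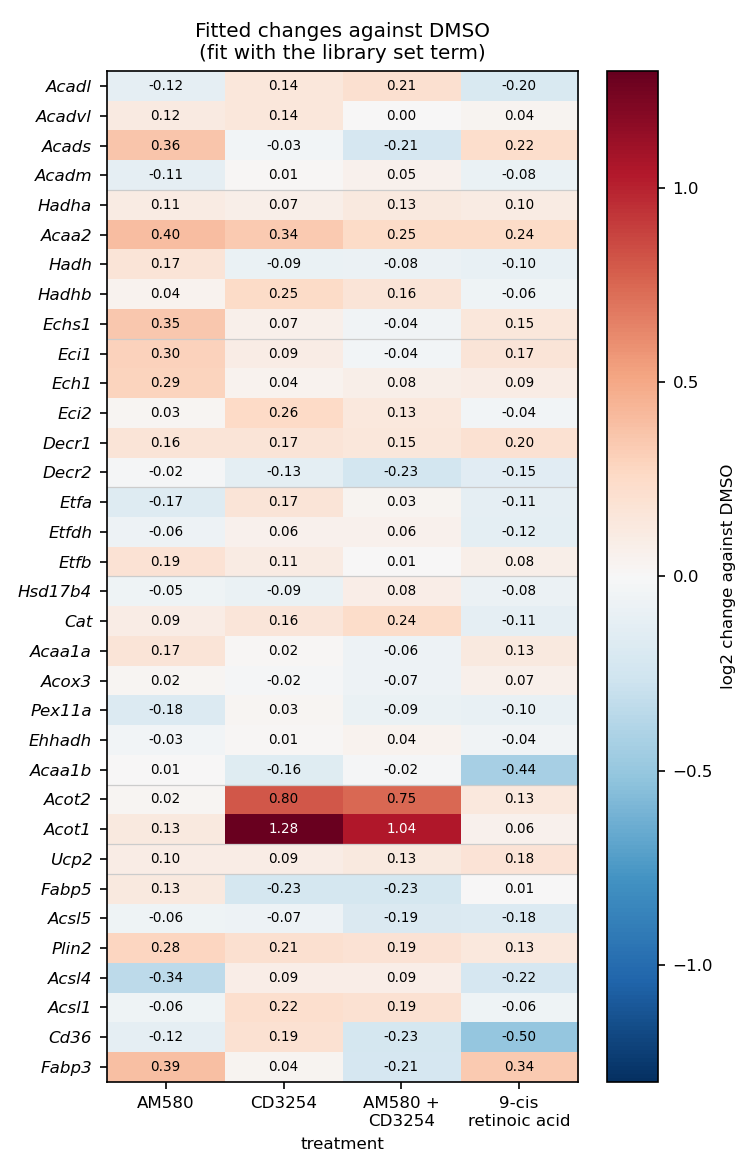
Fitted log2 change against DMSO of the 34 tested genes (rows, ordered by role) for each of 4 treatments (columns), from the fit with the library set term; red is higher and blue lower than DMSO. The Acot1 and Acot2 cells are the deepest red with CD3254 (1.28 and 0.80) and the joint treatment (1.04 and 0.75) and paler with AM580 (0.13 and 0.02) and 9-cis retinoic acid (0.06 and 0.13), and none of the values passed an edgeR FDR of 0.05.

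Setting treatments against each other gave the same counts. The joint treatment against AM580 called 0 of 34 (0% of all genes without the term, 0.012% with it), with 2 and 4 genes under an unadjusted p of 0.05 (1.37% and 5.62% of all genes). With the term these were Acot2 (0.73 ± 0.20), Acot1 (0.92 ± 0.27), Acadl (0.33 ± 0.12) and Acads (-0.57 ± 0.24), each with an edgeR FDR of 0.608. Acadl, Etfa and Acsl1 were higher in all 3 joint libraries (2.71% of all genes) and Acads lower (2.8%). DESeq2 called 0 in both fits (0.00598% and 0.0777% of all genes).

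The joint treatment against CD3254 asked what AM580 added, and 0 of 34 were called (0% and 0.0299% of all genes) with 0 under an unadjusted p of 0.05 (0.639% and 2.04%). DESeq2 also called 0 (0.0478% and 0.0837% of all genes). The difference was -0.24 for Acot1, with an interval from -0.84 to 0.37, and -0.05 for Acot2, with an interval from -0.51 to 0.40. No listed gene was higher in all 3 joint libraries (2.32% of all genes). Etfa was the 1 listed gene lower in all 3 (2.58%), at 145, 142 and 133 CPM against 154, 154 and 152 CPM with CD3254.

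The interaction, which asks whether AM580 acts differently when CD3254 is present, called 0 of 34 (0% of all genes in both fits), with 0 under an unadjusted p of 0.05 (0.592% and 1.98%) and 0 by DESeq2 (0% of all genes in both fits). Its estimate for Acot1 was -0.36 ± 0.38, with an interval from -1.23 to 0.51, wide enough to hold a 2-fold difference. For Acot2 it was -0.08 ± 0.29, with an interval from -0.72 to 0.57.

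9-cis retinoic acid against the joint treatment called 0 of 34 (0% and 0.00598% of all genes), with 2 and 4 under an unadjusted p of 0.05 (1.03% and 3.39%), and DESeq2 called 0 (0% and 0.0359% of all genes). The 4 were Acot1 (-0.99 ± 0.28), Acadl (-0.41 ± 0.12), Cat (-0.35 ± 0.10) and Acot2 (-0.62 ± 0.20), each with an edgeR FDR of 0.888. Acadl, Acot1 and Cat were lower in all 3 libraries of 9-cis retinoic acid (2.21% of all genes) and Acads was higher (2.35%). Cat measured 50.03, 59.7 and 65.2 CPM there.

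Of 60 other genes of fatty acid import, oxidation and PPAR signalling, 50 could be tested. With the term 3 rose and 0 fell with CD3254 averaged over AM580, where 9 of 16736 genes rose and 1 fell. Cpt1a, which controls the entry of fatty acids into mitochondria, rose by 0.87 ± 0.09 on the log2 scale (edgeR FDR = 0.00145), from a range of 67.4 to 159 CPM in the 6 libraries without CD3254 to one of 130.2 to 256 CPM in the 6 with it. Angptl4, a secreted inhibitor of lipoprotein lipase, rose by 2.71 ± 0.24 (edgeR FDR = 0.000195), and Acsl3, an acyl-CoA synthetase of lipid droplets, rose by 1.05 ± 0.17 (edgeR FDR = 0.0478). The other 47 did not pass. Without the term 0 of 50 passed, with 6 under an unadjusted p of 0.05 (1.2% of all genes), so these calls rest on the library set term. The median of the 50 was 0.0021, with 25 above 0. Neither AM580 nor 9-cis retinoic acid moved any of the 50 past the threshold with edgeR in either fit, and with the term 3 and 2 of them were under an unadjusted p of 0.05 (4.21% and 3.97% of all genes).

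The receptors themselves, named here after their values were seen, differed in level. Ppard had a mean of 45.7 CPM, Ppara of 3.99 CPM and Pparg of 1.45 CPM, and their RXR partners Rxrb and Rxra had means of 109 and 79.1 CPM. Ppard lay between 69.4 and 79.6 CPM in the 5-library set and between 23.6 and 50.3 CPM in the other 10, and Ppara between 6.04 and 8.44 CPM against 1.36 to 3.66 CPM.

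The listed genes also differed between the library sets, and these values are a description, because the sets were defined from these counts. All 5 libraries lay above all other 10 for 8 of 34 listed genes (23.5%, against 13.4% of all genes) and below them for 2 (5.88%, against 12.6%). Of the 7 genes in the peroxisomal role group, which leaves out Decr2, 5 were higher in the smaller set, with all 5 libraries above the 10. The mitochondrial genes of hydration, dehydrogenation and thiolysis went both ways, with log2 ratios of 0.40 for Echs1, 0.28 for Hadh, -0.30 for Hadha, -0.45 for Acaa2 and -0.54 for Hadhb.

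Fabp5 differed most, with 242 to 495 CPM in the 5 libraries and 53.0 to 84.0 CPM in the 10. Ehhadh measured 9.27 to 14.1 CPM against 5.04 to 7.24 CPM, and Pex11a, which drives the division of peroxisomes, 13.1 to 17.4 CPM against 8.34 to 10.7 CPM. These 3 genes and Acaa1a, Acaa1b, Acox3, Cd36 and Fabp3, a second binding protein, made up the 8. Hadhb went the other way, at 97.0 to 105 CPM against 116 to 177 CPM, and so did Hsd17b4, at 56.4 to 63.5 CPM against 66.5 to 92.7 CPM.

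Catalase, the other gene of the peroxisomal group, overlapped, with 50.03 to 68.9 CPM in the 5 libraries and 59.7 to 76.9 CPM in the 10. Decr2, a peroxisomal reductase grouped with the double-bond enzymes, also overlapped, with 30.7 to 40.7 CPM against 28.2 to 40.0 CPM. The ranges of the 2 sets also overlapped for all 4 acyl-CoA dehydrogenases, all 3 electron transfer flavoprotein genes and Ucp2. The hypoxia list moved with the same 5 libraries, in 11 of 11 genes, and its part in these differences was not tested.

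**Figure D5:**
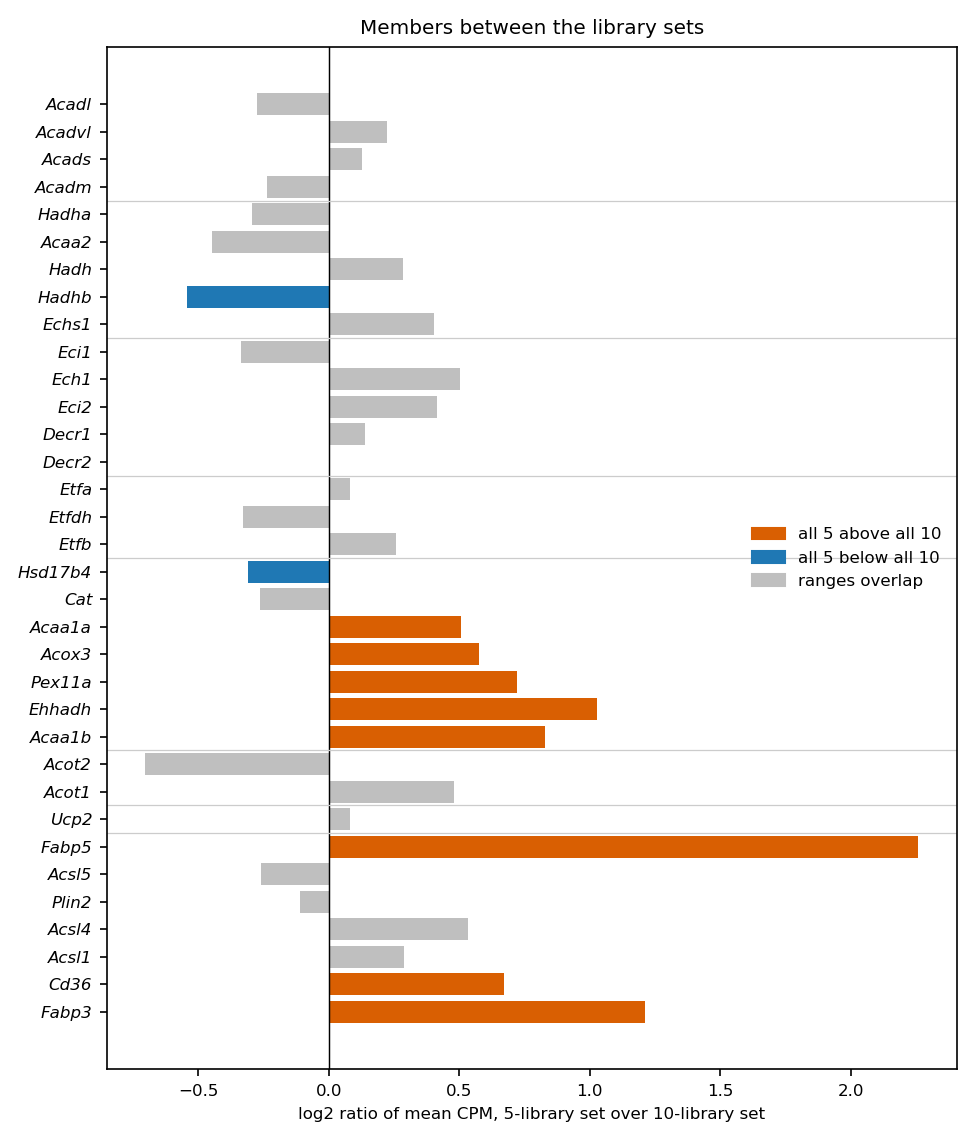
Log2 ratio of mean CPM in the 5-library set over the 10-library set for the 34 tested genes, ordered by role; orange bars are genes with all 5 libraries above all 10, blue bars those with all 5 below, grey bars those that overlap. Fabp5 has the largest ratio (2.26), and 5 of 7 genes in the peroxisomal role group, which leaves out Decr2, are orange.

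PPAR and RXR pairs bind a direct repeat of AGGTCA spaced by 1 base, written AGGTCANAGGTCA. It was searched on both strands, with up to 2 mismatches, in the window from 250 bases before to 50 bases after each RefSeq start site (GRCm38.p6). It was found for 6 of 31 listed genes with a window, Cat, Cd36, Echs1, Etfa, Plin2 and Ucp3, against 4.4% of 27025 genes (3.86% of 32851 windows). The 6 places are shown with 10 bases on either side, because the averaged CD3254 values of these genes are set beside them, and capitals mark the match. A match is a description of the letters and not a binding site.
Cat, chr2:103485335-103485367, reverse strand gene: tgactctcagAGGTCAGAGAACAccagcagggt
Cd36, chr5:17835937-17835969, reverse strand gene: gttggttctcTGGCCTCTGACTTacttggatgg
Echs1, chr7:140116482-140116514, reverse strand gene: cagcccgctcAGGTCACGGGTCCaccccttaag
Etfa, chr9:55512298-55512330, reverse strand gene: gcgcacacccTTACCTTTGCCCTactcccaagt
Plin2, chr4:86670262-86670294, reverse strand gene: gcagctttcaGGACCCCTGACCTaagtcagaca
Ucp3, chr7:100472930-100472962, forward strand gene: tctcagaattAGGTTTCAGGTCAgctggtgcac
All but the Cd36 place lie upstream of the annotated gene, and that of Cd36 lies inside it, because the gene has further start sites upstream. Of these genes Ucp3 was near 0, and the other 5 had averaged changes with CD3254 between -0.16 (Echs1) and 0.19 (Etfa) on the log2 scale. The single element AGGTCA, which every exact direct repeat contains, occurred in the windows of 7 of 31 listed genes, against 18.1% of all genes (16.3% of windows).

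The windows of Acot1 and Acot2 held neither form. The 250 bases before each start are shown because these were the genes with the largest CD3254 differences, and capitals mark the place with the fewest mismatches to the direct repeat, 4 for Acot1 and 3 for Acot2. Within 250 bases, 74.5% of all genes' windows had a place with at most 4 mismatches and 21.3% had one with at most 3. The result says only that these letters are not in this window.
Acot1, chr12:84009252-84009501, forward strand: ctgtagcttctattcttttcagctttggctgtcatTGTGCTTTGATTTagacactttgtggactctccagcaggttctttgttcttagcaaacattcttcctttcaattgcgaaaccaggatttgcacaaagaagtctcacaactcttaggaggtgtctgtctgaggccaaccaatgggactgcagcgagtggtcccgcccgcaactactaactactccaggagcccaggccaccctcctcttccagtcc
Acot2, chr12:83987611-83987860, forward strand: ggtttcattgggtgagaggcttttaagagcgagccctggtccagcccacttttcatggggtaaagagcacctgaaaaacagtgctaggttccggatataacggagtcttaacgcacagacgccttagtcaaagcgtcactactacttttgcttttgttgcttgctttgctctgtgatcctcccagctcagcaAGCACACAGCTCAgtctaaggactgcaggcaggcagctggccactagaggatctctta

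Other listed genes also share sequence with other loci, which bears on how far their levels can be trusted. The peroxisomal thiolases Acaa1a and Acaa1b were identical at 96.5% of aligned coding bases, and 39.6% of the 50-base words of Acaa1b occurred in another gene. The share was 44.8% for Etfb and 37.3% for Fabp3, which has a processed copy annotated as Fabp3-ps1, and 26.9% for Acadvl, which overlaps Dvl2. Levels of these genes are uncertain where the counting could split or drop such reads.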

How the data were processed

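RNA-seq was deposited for 15 libraries as 1 table of raw counts per Ensembl gene. The submitters' processing notes name HTSeq, HISAT2 2.2.1, SAMtools 1.18, FastQC and the mouse build mm10 as the tools from which the authors made these counts. Neither the annotation release nor the strand setting is stated in those notes or the labels. Reads without a gene, left out here, made up 18.1% to 28.5% of 14 libraries and 63.0% of replicate 3 of 9-cis retinoic acid. Of 43432 identifiers 42462 matched a symbol.

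Genes were filtered with filterByExpr and scaled by TMM. All 15 libraries entered 1 robust quasi-likelihood fit in edgeR 4.0.16 (limma 3.58.1, R 4.3.3), with 9 contrasts and Benjamini-Hochberg FDR over 16736 genes, threshold 0.05, without and with the library set as a term. DESeq2 1.42.0, RLE factors, no low-count filter, a replicate block, single library sets and leaving out each library were alternatives. Full values are given for listed genes past the threshold and for the 4 with the smallest p in each comparison with DMSO and in the averaged CD3254 comparison, genes of other lists are named where they passed or had the list's highest mean, and exceptions are stated. The code was tested on simulated data. The members and lists were chosen with earlier results of these data known. The labels do not tie replicates to separate cultures, and p-values then reflect only how far these libraries vary, possibly for technical reasons. The planned search for genes with a like pattern was not run, since libraries fell into sets. Intervals cover the fitted spread only.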

Additional observations from a re-analysis of the deposited data

How the results depend on the processing

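The count of listed genes past an edgeR FDR of 0.05 was 0 in every comparison both without and with the library set term, and 346 recomputed counts were unmoved while 14 moved. With DESeq2 and the term it was 1 (Acot1; 0.0717% of all genes) with CD3254 alone, 1 (Acot1; 0.544%) with the joint treatment, each against DMSO, and 2 (0.293%) in the averaged CD3254 comparison. In edgeR fits with the term that left out 1 library, counts ranged from 0 to 1 in these 3 comparisons. The library was replicate 1 of AM580 in all 3 (Acot1; 0.0467%, 0.222% and 0.07% of all genes), and replicate 3 of 9-cis retinoic acid in the joint and averaged comparisons (Acot2; 0.141% and 0.111%). Leaving out both, a choice made after seeing the data, gave 2, 2 and 2 in these comparisons (0.0765%, 0.641% and 0.147% of all genes) and 1 (Acot1; 0.0177%) for the joint treatment against AM580. In the 10-library set alone the averaged comparison gave 1 (Acot1; 0.0538%), and with Acot1 and Acot2 reads summed, also chosen after seeing the data, it gave 1 with the term (0.0657%).

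Of the single values, 7 turned direction, all for AM580 against DMSO. Eci1 gave -0.068 in the 10-library set, -0.018 without replicate 1 of AM580 and -0.029 without both libraries, the last 2 with the term. Acads gave -0.088, -0.015 and -0.016 in the same order. Without the term, Echs1 ranged from -0.015 to 0.55 over fits that left out 1 library each. The cause was not tested.

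With the replicate number as a block, 0 listed genes were called in every comparison, and the averaged changes of Acot1 and Acot2 were 1.11 and 0.80 (edgeR FDR = 0.782 and 0.999). The numbers were not taken to pair the libraries, because not every pair's correlation was over 0.1. Correlations of deviations ran from -0.68 to 0.81 over 30 pairs with the same number, 20 of them over 0.1, and from -0.70 to 0.76 over 60 pairs with different numbers, 26 of them over 0.1, and 7 of 15 libraries were closest to their own number. Replicate 3 of 9-cis retinoic acid, at 14600962 gene reads, limits the comparisons with that group. It also bears on the others, because all groups share 1 estimate of the spread. In the averaged CD3254 comparison with the term, Acot2 gave 0.76 with and without this library. The SE was 0.144 with it and 0.085 without it.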
